A study of Mus musculus with 2 samples.

Results

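Cxcr2-expressing mature neutrophils were taken here as the cell barcodes of sorted tumour leukocytes that held at least 2 transcripts of Cxcr2, a neutrophil gene and none of 3 lineage genes of other leukocytes. Members were selected on their measured counts of unique molecular identifiers (UMIs, which stand for captured transcripts) of these genes, so those counts describe the choice and support nothing further. They were 2110 of the 11350 barcodes that passed the limits of at least 200 genes and under 15% mitochondrial transcripts, and of 11698 barcodes in all. The rule further asked for at least 1 of Csf3r, Hdc, Il1r2 and Retnlg to be detected, at most 1 transcript of Siglecf, fewer than 10 of Ngp, Camp and Ltf together, and 0 of Cd3e, Cd79a and C1qa. Cxcr2 (ENSMUSG00000026180) lies on the plus strand of chromosome 1 at 74153989-74161246 in GRCm38.

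Live CD45-positive cells of liver tumours in C57BL/6 mice had been sorted, and 1 droplet library (10x Genomics 3′ v3) was made per group. All mice were on a methionine- and choline-deficient (MCD) diet, which produces fatty liver disease, and all carried orthotopic tumours of luciferase-labelled RIL-175, a mouse hepatocellular carcinoma line. The AKK group received 5e9 colony-forming units of Akkermansia muciniphila, a mucin-degrading gut bacterium, by mouth and the PBS group received the vehicle. Feeding began 2 weeks before the diet, the diet began 2 weeks before implantation, and feeding was paused for 6 days after surgery and then taken up again. The study asked how the bacterium bears on innate immune cells of the tumour. The labels do not say how many mice entered each library, and the tumours came from a transplanted line rather than from the liver itself. With 1 library per group no difference between PBS and AKK could be tested, so "higher" and "lower" describe these libraries. All intervals are exact 95% intervals (Newcombe's for differences of shares) that cover counting error only, since barcodes of 1 library are not replicates.

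Neutrophils are short-lived granulocytes that leave the bone marrow once the receptor CXCR2, which binds the CXC chemokines CXCL1, CXCL2 and CXCL5, outweighs the marrow-retaining receptor CXCR4. Their granules are filled in sequence during maturation, primary granules in promyelocytes, secondary granules in myelocytes and tertiary granules in late forms, so mature cells hold the proteins but little of the early transcripts. In tumours neutrophils can carry an interferon-response program, with guanylate-binding proteins, MHC class I and CXCL10, or an immunosuppressive one, with arginases, prostaglandin synthesis and PD-L1.

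In AKK the members held more transcripts of genes that respond to interferon-gamma, as described below, so the start regions of several of them are shown here. Interferon-gamma acts on the gamma-activated sequence (GAS, searched as TTCNNNGAA), and type I interferon and IRF proteins act on the interferon-stimulated response element (ISRE, searched as GAAA repeated after any 2 bases). Both strands of the RefSeq windows from 250 bases before to 50 after each gene's start (GRCm38.p6) were searched, and matches to the same motif may overlap. The stretches below are printed 5′ to 3′ on the gene's strand with matches in capitals, and positions count back from -1, the base before the RefSeq start. The gene coding for the guanylate-binding protein GBP2 has an ISRE on the opposite strand at -59. The GTPase gene Irgm1 has 2 overlapping ISREs at -30 and -24. The gene for the inflammasome-linked GBP5 has GAS matches at -245 and -52 and an opposite-strand ISRE at -165. The gene for the GTPase IGTP has a GAS at -45 beside an ISRE at -34.

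Gbp2 chr3:142620413-142620613 plus strand: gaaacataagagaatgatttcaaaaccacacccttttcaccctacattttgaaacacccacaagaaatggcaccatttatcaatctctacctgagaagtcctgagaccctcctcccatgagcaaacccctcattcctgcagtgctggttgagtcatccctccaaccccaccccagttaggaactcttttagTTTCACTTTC
Irgm1 chr11:48871421-48871670 minus strand: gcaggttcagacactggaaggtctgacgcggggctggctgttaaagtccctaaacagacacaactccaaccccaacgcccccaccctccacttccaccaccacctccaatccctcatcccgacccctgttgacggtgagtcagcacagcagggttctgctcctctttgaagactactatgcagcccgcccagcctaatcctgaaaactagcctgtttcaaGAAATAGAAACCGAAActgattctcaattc
Gbp5 chr3:142496684-142496899 plus strand: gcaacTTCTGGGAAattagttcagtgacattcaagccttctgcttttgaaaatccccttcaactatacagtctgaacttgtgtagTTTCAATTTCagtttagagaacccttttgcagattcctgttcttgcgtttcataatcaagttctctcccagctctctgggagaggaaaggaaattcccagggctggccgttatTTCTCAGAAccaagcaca
Igtp chr11:58199306-58199555 plus strand: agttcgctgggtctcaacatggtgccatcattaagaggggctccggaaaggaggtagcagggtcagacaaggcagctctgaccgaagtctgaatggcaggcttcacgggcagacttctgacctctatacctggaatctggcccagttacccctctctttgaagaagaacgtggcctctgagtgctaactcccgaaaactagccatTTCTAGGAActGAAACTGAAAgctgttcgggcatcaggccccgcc

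In the GENCODE M21 annotation the last 12 bases of the Gbp2 stretch belong to the 5′ UTR of a Gbp2 transcript, the Irgm1 stretch lies inside an exon of a noncoding Irgm1 transcript, the Gbp5 stretch lies in an intron of a noncoding Gbp5 transcript, and the Igtp stretch overlaps no transcript. Of the 21 interferon-gamma response genes measured in the members, 14 had a RefSeq promoter and 11 of these (78.6%) held a GAS or an ISRE, 6 a GAS and 9 an ISRE. Among all 27025 promoters 9.55% held a GAS, 3.99% an ISRE and 12.9% either, and among promoters of all measured genes 11.96% held either. The type I interferon list had a match in 19 of 28 promoters (67.9%), the MHC class I list in 7 of 21 (33.3%) and the secondary and tertiary granule list in 2 of 14 (14.3%). The windows of the interferon-gamma response genes Ifi47, Cxcl9 and Cd274 held neither motif, nor did those of Cxcr2 and Retnlg, and that of the granule gene Chil3 held a GAS at -172. A match is a description of the letters and not a shown site of binding.

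The PBS library held 940 members and the AKK library 1170. They made up 19.4% of the passing PBS barcodes (18.3 to 20.6) and 18.0% of the passing AKK barcodes (17.0 to 18.9), a difference of -1.50 percentage points (-2.96 to -0.0492). Set against neutrophil barcodes only, that is together with the Cxcr2-low, Siglecf-positive and granule-gene gates described below, they were 55.7% in PBS and 58.7% in AKK, a difference of 3.08 points (-0.125 to 6.28). The sign of the difference therefore depended on the denominator, and T cells, which were 330 PBS and 800 AKK barcodes, and C1q macrophages, 315 and 229, moved in opposite directions in the same sorts. Fewer neutrophils and more of the other leukocytes cannot be told apart in shares.

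The members were shallower than the libraries as a whole, whose medians were 6558.5 UMIs in PBS and 6488 in AKK. Their median was 5177.5 UMIs and 1619.5 genes per barcode in PBS and 4437 UMIs and 1451.5 genes in AKK. Summed over members, 5722391 UMIs in PBS and 5875350 in AKK were available, and levels below are CPM, the count per 1e6 UMIs of these sums. Mitochondrial transcripts were 0.452% of UMIs at the median in PBS and 0.303% in AKK. The libraries as a whole held 5088 barcodes with 64731604 UMIs in PBS and 6610 with 74495998 in AKK, and 8 barcode sequences occurred in both, of which 0 were PBS members and 3 were AKK members.

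The label was checked against neutrophil genes that the rule did not need. The alarmin genes S100a8 and S100a9 were detected in 99.4% and 99.7% of PBS members and in 97.9% and 98.0% of AKK members, with medians of 53 and 71.5 UMIs in PBS and 41 and 47.5 in AKK. Clec4d, a C-type lectin gene of neutrophils, was found in 98.3% and 97.7%, Mxd1, a transcription factor of late granulocytes, in 97.0% and 94.3%, G0s2, an inhibitor of lipolysis, in 94.0% and 92.9%, and Trem1, an activating receptor, in 93.3% and 90.1%. The primary granule gene Elane stood at 15.6 CPM in PBS and 16.9 in AKK. With each barcode thinned to 3122 UMIs, Trem1 was found in 86.1% and 85.5% of members and in 3.12% and 4.27% of T cells, Clec4d in 96.5% and 96.3% and in 7.19% and 8.02%, and G0s2 in 91.5% and 91.7% and in 9.69% and 8.80%. S100a8 also gave a UMI in 71.2% and 51.2% of thinned T cells, so its share alone says little, but its mean was 54.4 and 53.6 UMIs in members and 1.32 and 1.24 in T cells. Mxd1, found in 39.7% and 41.9% of thinned T cells, separates them less. Against the label, 59 PBS members (6.28%) and 149 AKK members (12.7%) had fewer than 10 UMIs of S100a8 and S100a9 together. Of the 4 neutrophil genes of the rule all were detected in 76.8% of PBS and 64.4% of AKK members, the gap coming with Retnlg, found in 81.0% and 68.1%.

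The rule's thresholds cut through continuous distributions. At 2 or more UMIs of Cxcr2 there were 1340 PBS and 1563 AKK barcodes, none of which lacked all 4 neutrophil genes, and 271 and 259 of them were left out for a T cell, B cell or macrophage transcript, 111 and 101 for granule genes and 18 and 33 for Siglecf. Just outside the Cxcr2 limit, at 1 UMI, lay 318 PBS and 428 AKK barcodes that met all other conditions, and just inside it, at 2 UMIs, 268 and 334. At 10 to 14 UMIs of the 3 granule genes 7 barcodes per library were just outside, and at 5 to 9 UMIs 36 PBS and 16 AKK barcodes were just inside. At Siglecf 1 UMI (inside) there were 42 PBS and 55 AKK members, and at 2 UMIs (outside) 10 and 19 barcodes.

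Along the Cxcr2 count itself, other neutrophil genes rose from the barcodes outside the limit to those inside. S100a8 stood at 9284 CPM in PBS barcodes with 1 Cxcr2 UMI and at 14670, 17247, 17044 and 21566 CPM in members with 2, 3, 4 and 5 or more. In AKK the same strata had 8682, then 14919, 14860, 15457 and 19197 CPM. Csf3r, the receptor of the granulocyte growth factor G-CSF, went from 832 CPM at 1 UMI to 1796 at 5 or more in PBS and from 1141 to 1802 in AKK. Retnlg, a resistin-like gene of neutrophils, went from 1410 to 5245 CPM in PBS and from 885 to 1872 in AKK. Gbp2 was 69.0 CPM at 1 UMI and between 88.1 and 110 in the PBS member strata, and 237 at 1 UMI and between 367 and 649 in the AKK ones. In each Cxcr2 stratum Gbp2 was higher in AKK and Retnlg lower. Median UMIs also rose, from 4670 to 5768 in PBS and from 3843.5 to 4854 in AKK, so depth moved with these levels. Mixed barcodes, defined below, were kept in these strata, and their part was not tested. In the later comparison of members with the Cxcr2-low gate, Csf3r and S100a8 were not past 1.5-fold in both libraries without mixed barcodes.

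Among all barcodes of the neutrophil gates that could be thinned to equal depth, 1512 in PBS and 1664 in AKK, the 10 genes whose log counts were most like those of Cxcr2 were Il1b (Pearson's r = 0.40 in both), Csf3r (0.39 and 0.37), Srgn (0.35 and 0.41), Hdc (0.34 and 0.36), Tyrobp (0.31 and 0.35), Ccr1 (0.31 in both), Clec4d (0.33 and 0.29), Btg1 (0.33 and 0.29), Csrnp1 (0.30 and 0.31) and Pim1 (0.28 and 0.33). Ribosomal protein genes lay at the other end, Rps28 at -0.30 in both. These are correlations across barcodes of the same libraries, given as a description, and Cxcr2, Csf3r and Hdc helped to set the gates.

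Transcripts of other cells were measured in the members before any comparison. Barcodes with at least 5 UMIs summed over another cell type's marker genes are called mixed below, a definition chosen after the data had been seen. They were 28 of the PBS members (2.98%, with 11.2% of the members' UMIs and a median of 17403.5 UMIs) and 44 of the AKK members (3.76%, 10.7% and 9709.5). Classical monocyte genes accounted for 25 in each library. In AKK 13 were marked by mast cell and basophil genes and had a median of 4 UMIs of S100a8 and S100a9, which goes against the neutrophil label, and PBS had 0 of these. NK cell genes marked 2 PBS and 9 AKK members and T cell genes 0 and 5. Estimated from lineage genes, macrophage RNA made up 3.23% of member UMIs in PBS and 1.75% in AKK, and T cell RNA 1.07% and 2.94%. B cell RNA made up 0.387% and 0.784%, and plasma cell RNA 0.162% and 0.595%. These estimates, called free RNA below, were taken over all members, mixed barcodes included. They therefore also hold the RNA of mixed barcodes and are not of free RNA alone.

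Marker lists of these cell types moved with the groups. All 7 measured T cell markers (of 12) were at least 1.5-fold higher in AKK, with a summed level of 52.8 CPM in PBS and 128 in AKK, and 1 of the 7 exceeded a limit of 2 times the level that free RNA would give. NK cell markers were higher in 7 of 7 (28.5 and 131 CPM), and B and plasma cell markers in 4 of 4 (488 and 1907 CPM, 0 above the free RNA limit). The free RNA level was itself scaled to the members' counts of Cd3d, Cd3g, Trac, Trbc1, Trbc2, Cd79b, Ms4a1, Jchain and Mzb1. How many T, B and plasma cell markers passed the limit was therefore largely set in advance, and says nothing of where their transcripts came from. Macrophage markers were lower in 6 of 10 (518 and 329 CPM) and monocyte markers in 4 of 8 (649 and 433 CPM). Mast cell and basophil markers summed to 27.4 and 89.0 CPM, eosinophil markers to 20.3 and 22.1, tumour and liver cell markers to 135 and 67.1, and red cell and platelet markers to 6.99 and 11.2. The eosinophil genes Epx and Prg3, the hepatocyte genes Ttr and Serpina1a, the red cell gene Hbb-bt and the macrophage gene Cd163 were at 0 in both libraries, as were Cd3e, Cd79a and C1qa by the rule. Ratios are therefore given also without the mixed barcodes where these change them, and the part of other cells' RNA in the results was otherwise not tested.

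In the comparison of AKK with PBS, 8960 genes had at least 50 UMIs over the members of both libraries. Of these 753 (8.4%) were at least 1.5-fold higher and 620 (6.92%) at least 1.5-fold lower in AKK, and the median gene was at a log2 ratio of 0.01. The counting interval of the ratio left out 1 for 647 of the 753 and 543 of the 620, and without mixed barcodes 567 and 435 of them were again past 1.5-fold. Members of the curated gene lists below are read against these shares.

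Interferon-gamma response genes were higher in the AKK members. Of 21 measured, 17 were at least 1.5-fold higher and 1 was lower, against 8.4% and 6.92% of all genes, and their median log2 ratio was 1.40 (1.48 without mixed barcodes). Gbp2, which helps to disrupt membranes around intracellular microbes, stood at 98.7 CPM in PBS and 500 in AKK, from 565 and 2940 UMIs, a 5.07-fold difference (4.63 to 5.56). It was detected in 187 PBS members (19.9%) and 470 AKK members (40.2%), and the top barcode held 5.31% and 2.69% of its UMIs, so the difference was spread over many cells. Irf1, a transcription factor induced early by interferon, stood at 231 and 450 CPM (1.95-fold, 1.82 to 2.08).

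The immunity-related GTPases, which act on pathogen vacuoles, went the same way. Irgm1 was 30.4 CPM in PBS and 125 in AKK (4.10-fold, 3.47 to 4.86), Ifi47 33.0 and 127 (3.83-fold, 3.26 to 4.52) and Igtp 26.4 and 79.1 (2.999-fold, 2.49 to 3.63). Gbp5 was 18.0 and 91.6 CPM (5.09-fold, 4.11 to 6.34), Gbp3 10.1 and 34.2 (3.38-fold) and Gbp7 80.9 and 125 (1.54-fold). Members of the Gbp and Irg families are similar in sequence, so reads may be divided among them uncertainly. In GRCm38 Gbp2 lies on chromosome 3 at 142620602-142638008 and Gbp5 at 142493978-142522344. Irgm1 lies on chromosome 11 at 48861968-48871683 and Ifi47 at 49076587-49096974.

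Of the chemokines induced by interferon-gamma, Cxcl10 was found in fewer members than Gbp2 and Cxcl9 in few. Gbp5 was found in 6.17% of PBS and 14.4% of AKK members, fewer than Cxcl10. Cxcl10, a T cell attractant acting on CXCR3, stood at 147 and 389 CPM (2.65-fold, 2.44 to 2.87), in 17.9% of PBS and 23.6% of AKK members. Cxcl9, another CXCR3 ligand, had 8 UMIs in 8 PBS members and 480 UMIs in 38 AKK members, of which 212 were in 1 barcode. Irf8 was 20.6 and 51.9 CPM (2.52-fold), but 1.42-fold without mixed barcodes. Nos2, the inducible nitric oxide synthase, was the single list member past 1.5-fold in the other direction, at 8.74 and 5.79 CPM (0.66-fold, 0.42 to 1.04), from few barcodes. The PD-L1 gene Cd274 was abundant in both, 1080 and 1537 CPM (1.42-fold, 1.38 to 1.47), and was found in 82.6% of PBS and 82.5% of AKK members.

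Receptors for the interferons did not differ at this size. Ifngr1 was 170 CPM in PBS and 173 in AKK (1.02-fold, 0.933 to 1.11), Ifngr2 79.5 in each and Ifnar1 80.0 and 63.1 (0.79-fold, 0.686 to 0.907).

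**Figure D1:**
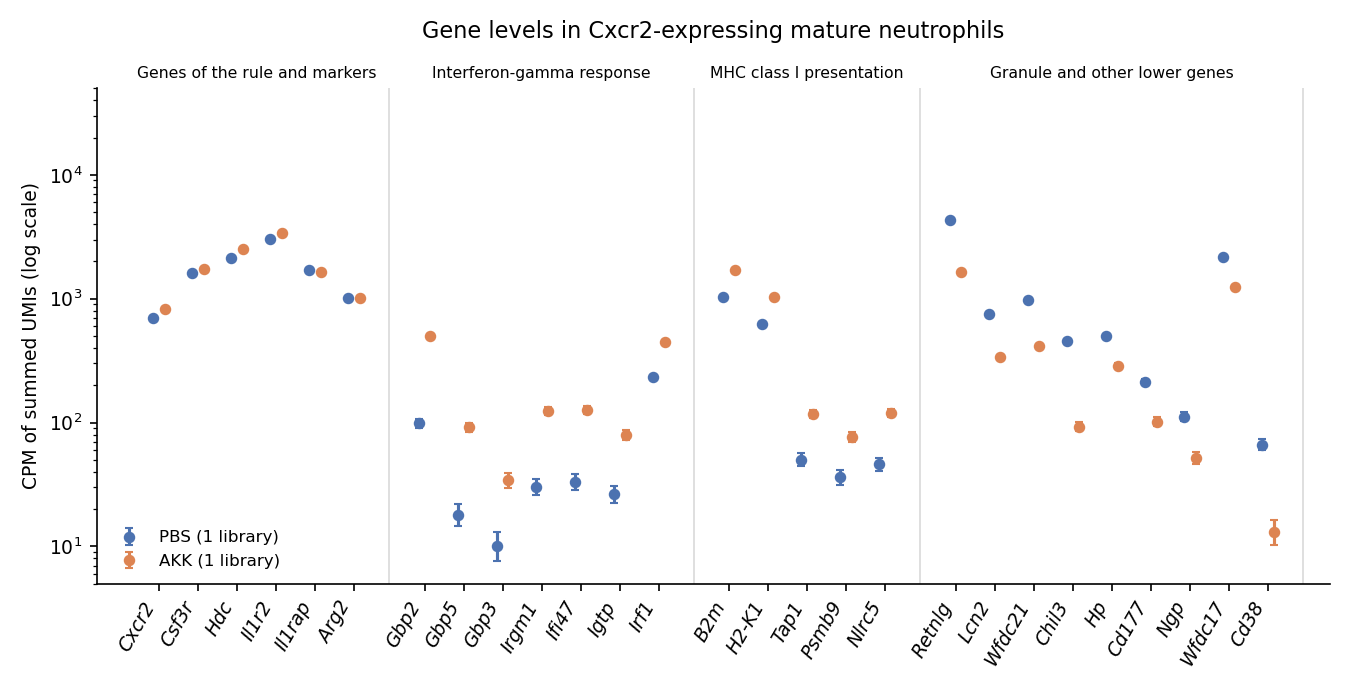
Levels of single genes in the members on a log axis of CPM, with 1 point per library (blue PBS, orange AKK) and exact Poisson 95% intervals of counting error as bars, often smaller than the point. Cxcr2, Csf3r, Hdc, Il1r2, Il1rap and Arg2 lie close together in the libraries, and Gbp2 is near 98.7 CPM in PBS and 500 in AKK. Chil3, Cd38 and Retnlg lie lower in AKK. Retnlg is also a gene of the rule but is drawn among the lower genes.

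Genes of type I interferon and of MHC class I presentation also lay higher in AKK. Of 35 type I interferon-stimulated genes measured, 18 were at least 1.5-fold higher and 0 lower, all 35 had a ratio above 1, and the median log2 ratio was 0.62 (0.65 without mixed barcodes). Rsad2, which codes for the antiviral enzyme viperin, was 226 CPM in PBS and 466 in AKK (2.06-fold), Ifit1 41.6 and 116 (2.80-fold), Isg15 171 and 286 (1.67-fold) and Samhd1, a dNTP-degrading enzyme, 999 and 1612 (1.61-fold). Several of these genes answer to both kinds of interferon, and the lists do not tell the interferons apart.

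Of 25 MHC class I presentation genes 15 were at least 1.5-fold higher, 24 had a ratio above 1, and the median log2 ratio was 0.69. Nlrc5, the transcriptional activator of class I genes, was 46.0 and 119 CPM (2.58-fold, 2.24 to 2.99), and the peptide transporter gene Tap1 50.2 and 116 (2.32-fold). The immunoproteasome gene Psmb9 was 36.2 and 75.9 CPM (2.10-fold), and the class I light chain B2m 1035 and 1700 (1.64-fold, 1.59 to 1.70). H2-K1 was 626 and 1031 CPM and H2-D1 886 and 1190. Class I heavy chain genes resemble each other closely, so their separate counts are uncertain.

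Genes of secondary and tertiary granules lay mostly lower in AKK. Of 17 secondary and tertiary granule genes 9 were at least 1.5-fold lower and 0 higher, with a median log2 ratio of -0.60 (-0.39 and 8 lower without mixed barcodes). Lcn2, the iron-scavenging lipocalin, was 757 CPM in PBS and 338 in AKK (0.447-fold, 0.423 to 0.471), in 71.3% and 44.0% of members. Wfdc21, a small secreted whey-acidic-protein gene, was 980 and 413 CPM (0.422-fold, 0.402 to 0.442), Cd177, a surface partner of proteinase 3, 211 and 102 (0.483-fold), Mmp25 145 and 79.8 (0.551-fold) and Hp, haptoglobin, 498 and 287 (0.576-fold). Chil3, a chitinase-like gene, was 453 and 92.8 CPM (0.205-fold, 0.187 to 0.225), and 302 of its 2590 PBS UMIs were in 1 barcode. Ngp stood at 112 and 51.6 CPM, although the rule had cut off its upper range together with that of Camp and Ltf. Where the list counts and median include these genes, they describe the choice in part and support nothing further. The gelatinase gene Mmp9 (739 and 673 CPM, 0.91-fold) and the protease inhibitor gene Slpi (884 and 941 CPM, 1.06-fold) stayed within 1.5-fold.

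Retnlg, a gene of the rule, stood at 4349 CPM in PBS and 1651 in AKK (0.380-fold, 0.371 to 0.389), with 24885 and 9702 UMIs. The 90th percentile per barcode was 77 UMIs in PBS and 22 in AKK. S100a8 was 18240 and 16622 CPM (0.911-fold) and S100a9 21680 and 17937 (0.827-fold). Among 16 S100 and alarmin genes 3 were lower and 0 higher, namely Wfdc21, Lcn2 and Wfdc17, an anti-inflammatory secreted factor at 2155 and 1254 CPM (0.582-fold).

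**Figure D2:**
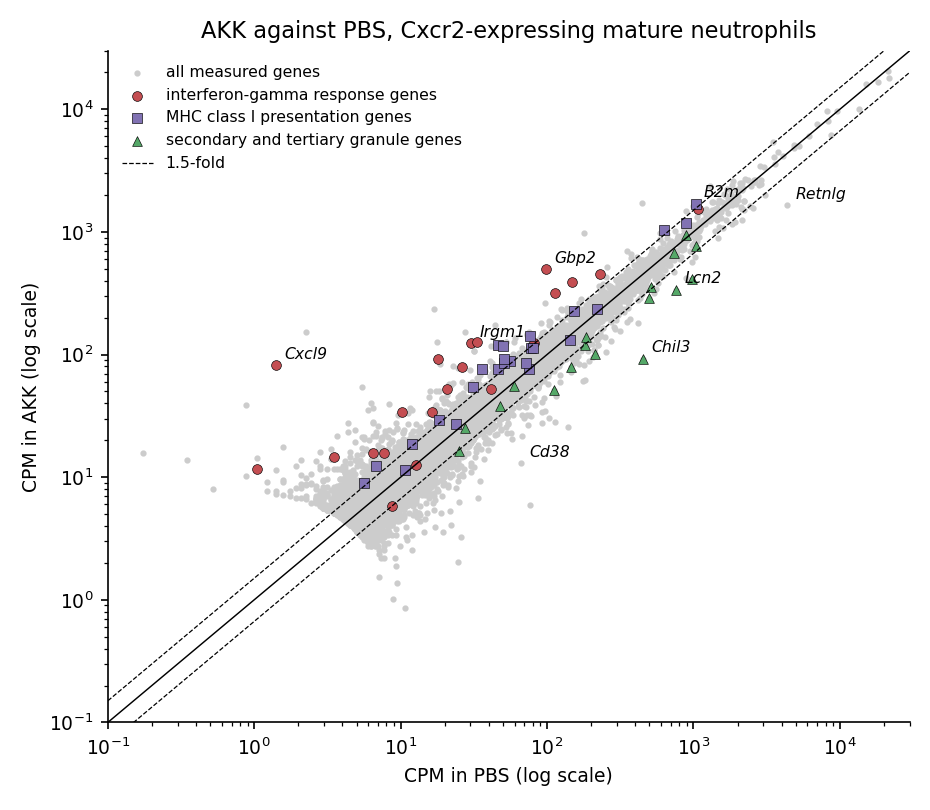
CPM in AKK against CPM in PBS, both on log axes, for measured genes with a count in both libraries (grey) and 3 gene lists, with solid line at equality and dashed lines at 1.5-fold. Interferon-gamma response genes lie mostly above the upper dashed line and granule genes on or below the diagonal, with Chil3, Lcn2 and Retnlg under the lower dashed line.

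Shares of members with a transcript were compared after thinning each barcode to 3122 UMIs, which left out 60 PBS and 151 AKK members and kept 880 and 1019. Gbp2 was then found in 12.95% of PBS and 34.4% of AKK members, a difference of 21.5 points (17.8 to 25.1), while 7.81% and 14.0% of equally thinned T cells had a Gbp2 UMI. Irgm1 was found in 6.93% and 21.1%, beside 5.94% and 9.06% of T cells. In PBS the members' share of Irgm1 was thus near that of T cells, and their share of Gbp2 was above it. T cell shares can include transcripts of the T cells themselves and are not a floor. Free RNA as estimated would give 3.91 CPM of Gbp2 in PBS and 5.59 in AKK, beside 98.7 and 500 in the members. For Irgm1 it would give 1.15 and 1.77 CPM, beside 30.4 and 125.

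Among the lower genes, Chil3 was found in 34.3% of PBS and 10.5% of AKK members, beside 14.1% and 6.60% of T cells, a difference of -23.8 points (-27.5 to -20.1). Lcn2 was found in 61.6% and 39.0%, beside 15.3% and 6.73% of T cells, and Wfdc21 in 71.2% and 44.4%, beside 5.63% and 2.85%. After thinning, these 3 transcripts were thus found in fewer AKK than PBS T cells too. By summed CPM in T cells, Chil3 was 0.789-fold, Lcn2 0.813-fold and Wfdc21 1.20-fold (0.878 to 1.66). Of 15 secondary and tertiary granule genes measured in T cells 5 were higher in AKK and 0 lower, where 8.5% of all genes were higher. In C1q macrophages 6 of 15 were lower and 0 higher, where 1135 of 10285 genes were lower. By summed CPM in these macrophages Chil3 was 0.517-fold, Lcn2 0.537-fold and Wfdc21 0.620-fold. Retnlg was found in 75.7% and 62.8% of members, a difference of -12.9 points (-16.9 to -8.73). Cd38, an NAD-consuming ectoenzyme, was found in 11.5% and 2.85% of members, at or below the 12.8% and 10.996% of T cells. The collagenase gene Mmp8, 0.659-fold by CPM (0.765-fold without mixed barcodes), was found in 22.7% and 22.4% of thinned members, beside 1.88% and 0.906% of T cells, a difference of -0.352 points (-4.14 to 3.40).

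Chemoattractant receptors and adhesion genes, which steer neutrophils out of the blood, mostly differed little. Of 20 measured, 1 was higher and 3 were lower. Cxcr2 was 703 and 832 CPM (1.18-fold, 1.13 to 1.23), a level that the rule fixed in part. Cxcr4 was 267 and 364 CPM (1.36-fold) and the integrin gene Itga4 166 and 261 (1.57-fold). The formyl peptide receptor gene Fpr1 was 208 and 110 CPM (0.527-fold, 0.479 to 0.581) and the adhesion gene Ceacam10 71.3 and 37.6 (0.528-fold).

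Of 20 cytokine receptor genes 0 were past 1.5-fold in either direction, and the median log2 ratio was -0.01. Csf3r was 1617 CPM in PBS and 1728 in AKK (1.07-fold, 1.04 to 1.10), and Il1rap, the shared chain of IL-1 family receptors, 1689 and 1636 (0.969-fold, 0.941 to 0.996). Il1r2, the decoy receptor for IL-1, was 3035 and 3405 CPM (1.12-fold). Arg2, the mitochondrial arginase, was 1014 and 1020 CPM (1.01-fold, 0.970 to 1.04) and Hdc, which makes histamine, 2140 and 2509 (1.17-fold). Csf3r, Il1rap and Arg2, markers of these cells, were thus at nearly equal levels in the libraries. Among 20 Fc and innate receptor genes 2 were lower, including Fcgr2b, which codes for the inhibitory Fc receptor, with 254 and 104 CPM (0.411-fold, 0.373 to 0.452), and 0 were higher.

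Chemokine transcripts were abundant in the members, and Cxcl2 reached the level of the alarmins. Cxcl2, itself a ligand of CXCR2, was 21377 CPM in PBS and 20472 in AKK (0.958-fold, 0.950 to 0.965). Of 14 chemokine genes 4 were higher and 1 was lower, and 4 and 2 without mixed barcodes. Ccl4, an inflammatory chemokine, was 1299 and 2348 CPM (1.81-fold, 1.76 to 1.86), while Ccl3 beside it in function was 2088 and 2497 (1.20-fold). Ccl5 was 31.8 and 107 CPM (3.36-fold), 2.04-fold without mixed barcodes, and free RNA of other cells would give 31.5 and 49.6 CPM. Cxcl3 was 2112 and 1582 CPM (0.749-fold) and Ccl6 3090 and 1998 (0.647-fold). Cxcl9 and Cxcl10, also past 1.5-fold, are given above. Members with at least 2 UMIs of Acod1 and of Cxcl3 were 54.9% in PBS and 46.6% in AKK, through Cxcl3 (59.4% and 48.2%) rather than Acod1 (91.0% and 93.2%).

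Cytokines of the IL-1 family and NF-kB targets were high in both libraries. Il1b was 8139 and 9671 CPM (1.19-fold, 1.17 to 1.20) and Tnf 260 and 302 (1.16-fold). The inflammasome genes went apart, Pycard at 67.3 and 31.998 CPM (0.476-fold) and Casp1 at 11.4 and 19.4 (1.71-fold). Il15, which sustains NK and memory T cells, was 258 and 516 CPM (2.00-fold, 1.88 to 2.13), in 42.8% and 55.9% of members, and after thinning in 34.3% and 49.6%, beside 0.938% and 1.29% of T cells. Hbegf, an EGF receptor ligand, was 288 and 169 CPM (0.586-fold). Of 22 NF-kB feedback and target genes 3 were higher and 0 lower, among them Tnfaip2 at 895 and 1493 CPM (1.67-fold) and Acod1, the itaconate-producing enzyme, at 3502 and 5424 (1.55-fold, 1.52 to 1.58).

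Genes tied to suppressive neutrophils did not move as a block. Of 22 genes associated with myeloid-derived suppressor cells 0 were higher and 4 lower in AKK, and these were Arg1, Ptges, Wfdc17 and Nos2. Ptges, the terminal prostaglandin E2 synthase, was 24.5 and 13.4 CPM (0.550-fold), while Ptgs2, the inducible cyclooxygenase before it, was 1830 and 2434 (1.33-fold, 1.30 to 1.36). Arg1 was 138 and 25.7 CPM, but 423 of its 791 PBS UMIs were in 1 barcode and the ratio was 0.81 without mixed barcodes. Of 16 arginine, adenosine and NAD genes 4 were higher and 5 lower, and 4 and 2 without mixed barcodes. Nampt, which makes NAD and is inducible, was 376 and 664 CPM (1.77-fold, 1.68 to 1.86), and the NAD-consuming Cd38 66.2 and 13.1 (0.198-fold, 0.153 to 0.253) and Bst1 223 and 140 (0.630-fold). Parp14 and Parp10, which transfer ADP-ribose, were 2.11-fold and 1.94-fold higher. Among 16 checkpoint and co-stimulatory genes 3 were higher, with Cd69 at 97.3 and 262 CPM (2.69-fold, 2.00-fold without mixed barcodes), and 0 lower.

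In the survival list 2 of 24 were higher and 2 lower, and 2 and 3 without mixed barcodes. The anti-apoptotic gene Bcl2l1 was 537 and 315 CPM (0.586-fold, 0.553 to 0.621), in 80.3% and 56.8% of members, and Bcl2a1a 559 and 340 (0.609-fold), where the Bcl2a1 copies are near-identical and their counts uncertain. Mcl1, on which neutrophil survival depends, was 1940 and 1813 CPM (0.935-fold). Fkbp5, a glucocorticoid-induced gene, was 74.1 and 26.7 CPM (0.361-fold, 0.298 to 0.434). With all barcodes it was 1 of 14 glucocorticoid response genes past 1.5-fold, and without mixed barcodes 3 were lower. Glycolysis and hypoxia genes had 0 of 26 higher and 2 lower (3 without mixed barcodes), Hilpda at 210 and 109 CPM (0.519-fold) and Pfkfb3 at 173 and 115 (0.664-fold). NADPH oxidase genes, which make the oxidative burst, had 0 of 8 past 1.5-fold.

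Of 33 granulocyte transcription factor genes 1 was higher and 1 lower, both at low levels, and 1 and 2 without mixed barcodes. Of 23 dissociation stress genes 3 were lower (4 without mixed barcodes), led by Hspa1a at 92.1 and 27.6 CPM, of which 264 PBS UMIs lay in 1 barcode (0.60-fold without mixed barcodes). Of 19 cell cycle genes 2 were higher and 4 lower, and 1 and 0 without mixed barcodes. In the remaining lists the primary granule genes had 2 of 5 lower (1 without mixed barcodes) and the stefin A genes, whose copies are near-identical, 1 higher and 1 lower of 5. Across all the lists 113 of 415 measured members were past 1.5-fold in either direction, beside 8.4% of all 8960 genes higher and 6.92% lower. The lists were chosen with earlier results of these data known, so an excess over all genes may come from that choice.

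Ranked over all genes above the free RNA limit with at least 100 UMIs, the 12 highest ratios were those of Cxcl9, Gata2, Kcnq5, Cdh6, Xcl1, Ereg, Gzma, Il12rb2, Gbp5, Gbp2, Slco2a1 and Piezo2. Several rested on 1 barcode, which held 697 of 744 AKK UMIs of Cdh6, 117 of 127 of Ereg and 155 of 165 of Piezo2, and Gata2, a mast cell and basophil factor, was 1.36-fold without mixed barcodes. Without mixed barcodes the ranking began with Cxcl9, Gbp5, Gbp2, Gbp3, Irgm1 and Ifi47. Among the 12 lowest stood Ghr, Zfp804a, Ankrd1, Lingo2, Bcl2l15, Arg1, Cd38, Apoc2, Chil3, Shtn1 and Shroom4, with 419 of 438 PBS UMIs of Ghr in 1 barcode. Without mixed barcodes Ghr was 0.969-fold, Lingo2 0.726-fold, Shtn1 0.632-fold, Apoc2 0.460-fold, Shroom4 0.404-fold and Ankrd1 0.323-fold. The lowest ratios in that setting began with Zfp804a, Bcl2l15, Chil3, P2rx7 and Cd38. Over all PBS members, 1 barcode held 71 of 142 UMIs of Zfp804a, found in 8 barcodes, and 1 held 43 of 108 of P2rx7, found in 20. Bcl2l15, a gene of the BCL2 family, had 111 UMIs in PBS and 21 in AKK. Crispld2, a secreted lipopolysaccharide-binding protein gene, was 176 and 60.8 CPM (0.345-fold, and 0.341-fold without mixed barcodes) and was spread over 474 PBS members.

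The members were not uniform, and Retnlg split them along a gradient. With 0 Retnlg UMIs were 179 PBS members (19.0%) and 373 AKK members (31.9%), with 1 to 9 UMIs 365 (38.8%) and 542 (46.3%), and with 10 or more 396 (42.1%) and 255 (21.8%). The share with 10 or more differed by -20.3 points in AKK (-24.2 to -16.4) and the share with 0 was 12.8 points higher (9.13 to 16.5). These classes are ranges of a count and not cell types, and the median depth rose along them from 4547 to 5987 UMIs in PBS and from 4108 to 5091 in AKK. In both libraries S100a8 rose along the gradient, from 9071 over 10079 to 28805 CPM in PBS and from 7553 over 12812 to 33618 in AKK. Ccl3, Icam1, Csf1 and Cd274 ran the other way, Ccl3 from 3586 to 1433 CPM in PBS and from 4465 to 936 in AKK, and the adhesion gene Icam1 from 627 to 159 and from 718 to 175.

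The difference in Gbp2 between the libraries was present in every Retnlg class. Gbp2 was 132 CPM in PBS and 796 in AKK at 0 Retnlg UMIs (6.03-fold), 148 and 476 at 1 to 9 (3.23-fold) and 42.9 and 220 at 10 or more (5.14-fold). Irgm1 was 3.11-fold, 3.56-fold and 3.97-fold higher in the same order. Interferon-gamma response genes at least 1.5-fold higher were 13 of 15, 14 of 19 and 9 of 12. Lcn2 was lower in each class too, 346 and 192 CPM at 0 (0.555-fold), 623 and 245 at 1 to 9 (0.393-fold) and 1019 and 670 at 10 or more (0.658-fold). Chil3 was 0.448-fold, 0.111-fold and 0.172-fold, Wfdc21 0.544-fold, 0.535-fold and 0.538-fold and Cd38 0.119-fold, 0.266-fold and 0.117-fold. The granule list had 10 of 16, 8 of 17 and 6 of 16 lower. Over all genes 416 were higher and 435 lower of 4881 at 0, 562 and 1034 of 6919 at 1 to 9, and 797 and 499 of 5598 at 10 or more. Gbp2 was thus higher and Lcn2 lower in AKK also among members of like Retnlg count.

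**Figure D3:**
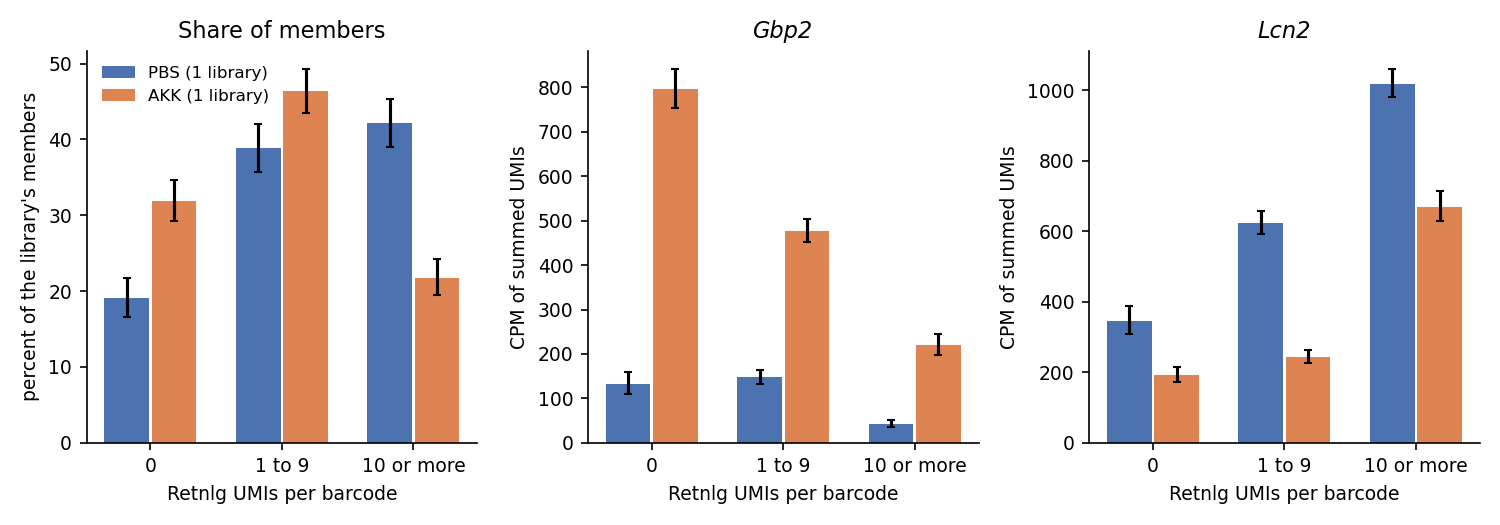
Bars give the share of the library's members (left, percent, exact 95% binomial intervals) and the CPM of Gbp2 (middle) and Lcn2 (right, exact Poisson intervals) by Retnlg UMIs per barcode, blue for PBS and orange for AKK. The class with 10 or more UMIs holds 42.1% of PBS and 21.8% of AKK members, and within each class Gbp2 is higher and Lcn2 lower in AKK.

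The same contrast was taken in the other gates of these libraries, with no test of the difference between gates. The Cxcr2-low gate held barcodes with 0 or 1 Cxcr2 UMI, at least 2 of the 4 neutrophil genes, at least 10 UMIs of S100a8 and S100a9 and no Csf1r (521 in PBS, 576 in AKK), under the same limits on Siglecf and granule genes as the members. The granule-gene gate held barcodes with 10 or more UMIs of Ngp, Camp and Ltf and 10 or more of S100a8 and S100a9 (186 and 178). The Siglecf-positive gate held those with at least 2 Siglecf UMIs, at least 1 neutrophil gene, at least 1000 UMIs in all and few granule gene UMIs (42 and 68). Transcripts of Cd3e, Cd79a and C1qa were absent from each of these gates by rule. Gbp2 was higher in AKK in each neutrophil gate. It was 8.29-fold higher in the Siglecf-positive gate (4.11 to 19.5, from 8 and 163 UMIs), 3.74-fold in the granule-gene gate (2.66 to 5.34) and 3.14-fold in the Cxcr2-low gate (2.67 to 3.69), or 4.22-fold there without mixed barcodes (3.48 to 5.14), beside 5.07-fold in the members. In C1q macrophages Gbp2 was 107 and 206 CPM (1.92-fold), and in T cells it was 1.48-fold higher. Irgm1 and Ifi47 also had ratios above 1 in each of these gates, but Gbp5 and Cxcl10 did not. Gbp5 was 0.358-fold in the granule-gene gate (from 23 and 6 UMIs), 1.27-fold in the Cxcr2-low gate (0.946 to 1.70) and 4.68-fold in the Siglecf-positive gate (from 2 and 23 UMIs). In macrophages Gbp5 was 0.289-fold. Cxcl10 was 0.376-fold, 1.20-fold, 1.24-fold and 0.354-fold in the same order.

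As a list, interferon-gamma response genes were higher in 8 of 22 in the Cxcr2-low gate, where 18.7% of all genes were higher, and the median log2 ratio was 0.44. Without mixed barcodes the count was 10 of 16 there (16% of all genes, median 0.88) and 15 of 19 in the members (7.85% of all genes, median 1.48). The granule-gene gate had 6 of 12 higher (7.59% of all genes, median 0.57), the Siglecf-positive gate 5 of 8 (25%, median 0.97), C1q macrophages 8 of 23 (8.61%, median 0.19) and T cells 4 of 24 (8.5%, median 0.37). Lower were 1 in the Cxcr2-low gate (0 without mixed barcodes), 2 in the granule-gene gate, 1 in the Siglecf-positive gate, 2 in macrophages and 1 in T cells. Type I interferon genes in the Cxcr2-low gate had 1 of 34 higher and 3 lower (median -0.08), and 7 of 33 higher and 2 lower without mixed barcodes (median 0.11), a share near that of all genes, beside a median of 0.65 in the members without mixed barcodes. MHC class I genes depended on the mixed barcodes in the Cxcr2-low gate, with 1 of 25 higher (median 0.23) with them and 15 of 22 (median 0.71) without, beside 16 of 25 (median 0.65) in the members without them. Their median was 0.40 in macrophages and 0.08 in T cells. Type I interferon genes had 2 of 37 higher and 12 lower in macrophages, beside 886 and 1135 of 10285 genes. In T cells 2 of 34 were higher and 3 lower, beside 898 and 595 of 10563 genes.

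Granule genes were lower in 10 of 17 in the Cxcr2-low gate, where 6.51% of all genes were lower (median log2 ratio -0.68). Without mixed barcodes 8 of 17 were lower and 1 was higher (median -0.55), against 6.01% of all genes lower. In the granule-gene gate 0 were lower, where 9.18% of all genes were, and 2 of 17 were higher, near the share of all genes, with a median of 0.25. Ngp, Camp and Ltf set a limit of each neutrophil gate, so their part in these counts describes the choice. Retnlg was 0.487-fold in the Cxcr2-low gate (0.481-fold without mixed barcodes), 1.03-fold in the granule-gene gate and 0.150-fold in the Siglecf-positive gate. Chil3 was 0.365-fold (0.214-fold without mixed barcodes), 0.875-fold and 0.464-fold in the same gates, and Lcn2 was 0.495-fold (0.569-fold), 0.860-fold and 0.857-fold. Mixed barcodes were 76.3% of the granule-gene gate in PBS and 73.0% in AKK, and their part in those values was not tested.

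**Figure D4:**
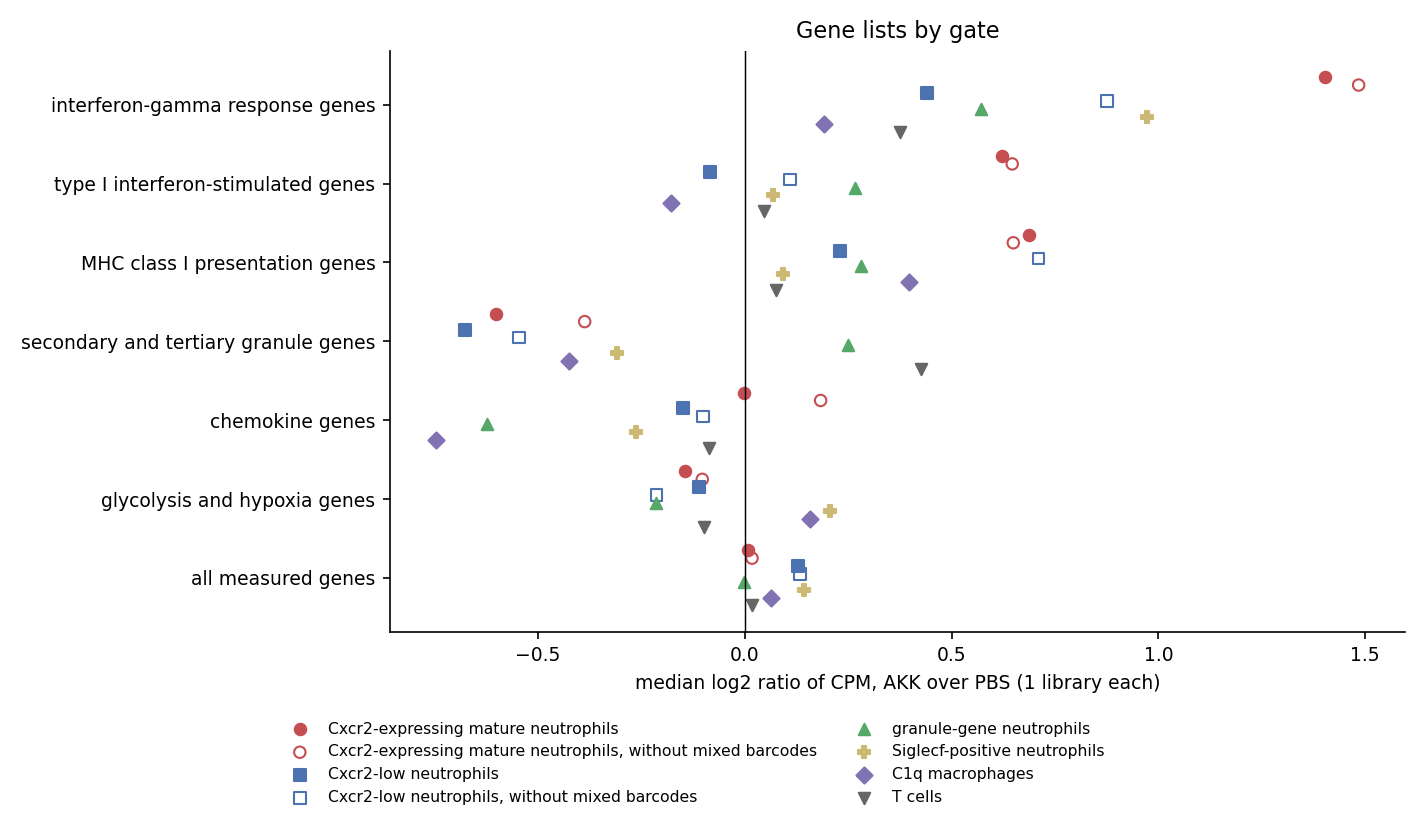
Median log2 ratio of CPM, AKK over PBS, of 6 gene lists and of all measured genes by gate, with filled symbols for all barcodes of a gate and open symbols for the members and the Cxcr2-low gate without mixed barcodes. The interferon-gamma list lies at 1.40 and 1.48 in the members, at 0.44 and 0.88 in the Cxcr2-low gate and at 0.97 in the Siglecf-positive gate, and the granule list lies at -0.60 and -0.39 in the members and at 0.25 in the granule-gene gate.

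Compared with the Cxcr2-low gate within each library, the members had 619 of 8921 genes (6.94%) at least 1.5-fold higher in both libraries and 3176 (35.6%) lower, but mixed barcodes held 45.0% and 46.4% of the Cxcr2-low UMIs. Without mixed barcodes 102 of 6996 (1.46%) were higher and 656 (9.38%) lower. The gates were set on Cxcr2 and neutrophil genes, so these counts and the values that follow are descriptions. Levels here and in the next paragraph are without mixed barcodes unless stated. Retnlg was 4746 CPM in PBS members and 2135 in the Cxcr2-low gate, and 1664 and 1027 in AKK. Hp (497 and 224 in PBS, 301 and 182 in AKK), Pglyrp1, a peptidoglycan-binding granule gene (458 and 219, 375 and 226), the maturation gene Cd101 (101 and 58.8, 104 and 62.5) and Ltb4r1, the leukotriene B4 receptor gene (119 and 74.2, 107 and 65.4), were higher in the members. Gbp2 was 104 and 66.5 CPM in PBS and 524 and 280 in AKK.

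Without mixed barcodes 14 of 26 hypoxia and glycolysis genes were lower in the members than in the Cxcr2-low gate in both libraries. None of the 26 was higher, and 9.38% of all genes were lower. With all barcodes 10 of 26 were lower, near the 35.6% of all genes, and 3 were higher. Ldha, lactate dehydrogenase, was 236 CPM in members and 642 in the Cxcr2-low gate in PBS, and 234 and 469 in AKK. Bnip3, a mitophagy gene induced by HIF-1, was 91.5 and 242 in PBS and 76.6 and 185 in AKK. Ero1l (298 and 1005, 209 and 685), P4ha1 (102 and 388, 76.6 and 202), Hilpda (223 and 551, 113 and 320) and Vegfa (183 and 317, 155 and 255) showed the same order. Without mixed barcodes Csf3r, Il1rap, Arg2, S100a8, S100a9, Cd274, Mmp9 and Cxcr4 were not past 1.5-fold in both libraries. With all barcodes the first 3 were. Csf3r was then 1617 CPM in members and 680 in the Cxcr2-low gate in PBS, and 1728 and 770 in AKK. Il1rap was 1689 and 668 in PBS and 1636 and 881 in AKK, and Arg2 1014 and 522, and 1020 and 508. Of 14 mature neutrophil markers 14 were higher in both libraries with all barcodes and 2 without mixed ones. Of 23 dissociation stress genes 7 were lower in the members without mixed barcodes, and 6 were lower and 1 higher with all barcodes. Hspa1a was 49.98 and 343 CPM in PBS and 29.9 and 77.7 in AKK, so a stress signal moved with this contrast and its part was not tested.

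Against the granule-gene gate 1638 of 8723 genes (18.8%) were higher and 3390 (38.9%) lower in the members in both libraries, but mixed barcodes held 90.1% and 88.8% of that gate's UMIs. Without them the balance turned, with 1290 of 6139 (21%) higher and 577 (9.4%) lower. Il1b was 8139 CPM in members and 578 in the granule-gene gate in PBS, and 9671 and 532 in AKK. Of 22 NF-kB genes 20 and of 20 cytokine receptor genes 16 were higher in the members, and without mixed barcodes 19 of 21 and 13 of 20. Elane, neutrophil elastase, was 15.6 and 559 CPM in PBS and 16.9 and 962 in AKK, and 7 of 7 primary granule genes and 20 of 21 cell cycle genes were lower. Without mixed barcodes the primary granule genes had 2 of 4 higher and 1 lower and the cell cycle genes 1 of 6 higher and 4 lower. Camp, Ngp and Ltf separated the gates by the rule.

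Against the Siglecf-positive gate 622 of 7017 genes (8.86%) were higher and 1787 (25.5%) lower, and without mixed barcodes 604 of 6285 (9.61%) and 1704 (27.1%). Il15 was 258 CPM in members and 62.0 in that gate in PBS and 516 and 42.4 in AKK, and Retnlg 4349 and 822 in PBS and 1651 and 123 in AKK. Plet1 (30.2 and 492, 33.9 and 623) and the class II gene H2-Ab1 (127 and 1422, 190 and 1784) were lower in the members. Of 17 granule genes 8 and of 34 type I interferon genes 18 were higher in the members than in the Siglecf-positive gate. Without mixed barcodes 8 granule genes were higher and 2 lower, and 11 type I interferon genes were higher and 1 lower.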

How the data were processed

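Gene expression was measured by droplet single-cell RNA-seq in 2 libraries, PBS and AKK. The authors deposited raw UMI counts per gene and barcode, with no normalization. Cell Ranger 7.1.0 is named in the matrix headers and Cell Ranger 5.0.1, with mm10, in the submitters' processing notes. The sources used here do not say whether intronic reads were counted, which would change UMI levels. Members and gene lists were chosen with earlier results of these data known.

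UMI counts were summed over the members of each library and scaled to CPM. Genes with at least 50 UMIs over both libraries were measured, and 1.5-fold was the limit for calling a gene higher or lower. Ratios have exact conditional binomial intervals, levels exact Poisson, shares Clopper-Pearson and differences of shares Newcombe intervals, all at 95%. List medians are of the log2 CPM ratio. Doublets were not removed, and mixed barcodes were left out as an alternative. Free RNA was estimated from lineage genes of macrophages, T, B and plasma cells over all members, mixed barcodes included. Named genes were the genes of the rule and markers, up to 4 members with the largest ratio per list and direction plus those that the background needs, the 12 highest and 12 lowest genes with at least 100 UMIs, and the 10 genes most correlated with Cxcr2. Genes named in the comparisons of gates follow the same lists, and Crispld2 was added after its values had been seen. The computation was tested on simulated data and run in Python 3.11.15 with numpy 2.4.6, pandas 2.3.3, scipy 1.17.1 and scanpy 1.11.5. Coordinates are from GENCODE M21 on GRCm38 and promoters from RefSeq on GRCm38.p6. A few genes that the rule names are not reported here.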

Additional observations from a re-analysis of the deposited data

How the results depend on the processing

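No paired analysis was possible because there was 1 library per group, and for the same reason no replicate could be left out. The sets without mixed barcodes, the Retnlg classes and the set with at least 10 UMIs of S100a8 and S100a9 were chosen after the data had been seen. Over 17 alternatives the genes higher in AKK numbered 9 to 19 in the interferon-gamma list (9 of 12 at 10 or more Retnlg UMIs), 14 to 24 in the type I interferon list and 10 to 16 in the MHC class I list, and the granule genes lower in AKK 6 to 10. Gbp2 ranged from 3.23-fold to 6.03-fold, Chil3 from 0.111-fold to 0.448-fold and Cd38 from 0.117-fold to 0.266-fold. Csf1 was past 1.5-fold in 7 of the 17. The difference in the share of members was 0.409 points with Ngp, Camp and Ltf under 3 UMIs (-0.985 to 1.79), 3.08 points of the neutrophil gates and -3.99 points among barcodes of 2000 to 20000 UMIs. Counts of genes higher and lower were 1363 and 1117 with at least 20 UMIs per gene, 235 and 206 with at least 200, where more and fewer genes were measured, 444 and 410 after thinning, 416 higher at 0 Retnlg UMIs and 1034 lower at 1 to 9. Without mixed barcodes 102 genes were higher and 656 lower than in the Cxcr2-low gate and 577 lower than in the granule-gene gate. Arg1 turned to a log2 ratio of 0.21 at 0 Retnlg UMIs, and the cause was not tested. Retnlg turned to 0.23 within its own class of 1 to 9 UMIs. That class bounds the Retnlg count in both libraries, so this value says nothing of the members as a whole. Depth limits genes with few UMIs, and 1 library per group leaves the spread between mice unknown.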
